A study of Homo sapiens with 4 samples.

Results

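The N-myc downstream regulated gene (NDRG) family of H1975 cells was followed in hypoxia and in normoxia through its 4 genes, NDRG1, NDRG2, NDRG3 and NDRG4, taken by gene symbol from the 15562 genes of the RNA-seq tables. The family was chosen by gene name, and with the hypoxia to normoxia ratio of NDRG1 in these libraries already known, so the values are given as a description. H1975 cells are a human line from lung adenocarcinoma, labelled WT in genotype in every library. The hypoxia library came from cells held for 24 h in an incubator with 1% O2, 5% CO2 and 94% N2, and the normoxia library from cells held for 24 h in a humidified atmosphere with 5% CO2. All cells were grown in RPMI 1640 with fetal bovine serum and antibiotics. Each condition has 1 RNA-seq library, so no difference has a replicate check and no p-value was computed.

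NDRG proteins share a fold of the alpha/beta hydrolase kind but are not known to act as enzymes. NDRG1 takes its family name from repression by N-myc, and it is known as a stress gene that is induced by hypoxia-inducible factors (HIF), iron depletion and DNA damage. NDRG2 is best known from astrocytes and as a candidate tumour suppressor, and NDRG4 from heart and brain. NDRG3 is known as a protein that the oxygen sensor EGLN1 (PHD2) and the ubiquitin ligase subunit VHL mark for destruction, and that lactate protects in hypoxia. That control acts on the NDRG3 protein, which RNA-seq does not measure.

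The libraries held 18943320 counts in hypoxia and 17643836 in normoxia, and 12725 genes reached a CPM (a count scaled to library size) of 1 in at least 1 library. Counts were scaled by the trimmed mean of M values (TMM). A ratio of hypoxia to normoxia is given with its exact 95% counting interval. With 1 library per condition it covers counting error only, and no spread between cultures. It also treats reads as independent, but reads that carry no molecular identifier need not be independent molecules, so the interval may be too narrow. A gene was called higher or lower when its ratio was 2-fold or more and its interval left out no change. The median log2 ratio of all genes past this minimum was 0.0033. Of 6 epithelial markers, all present, KRT8 was highest at 1692 FPKM (counts per length and library total) in hypoxia and 1821 FPKM in normoxia. CDH1 was lowest of them, at 9.47 FPKM in hypoxia and 9.11 FPKM in normoxia. The lung factor NKX2-1 was present at 34.8 FPKM in hypoxia and 32.4 FPKM in normoxia. The surfactant genes SFTPA1, SFTPB, SFTPC and SFTPD did not pass the minimum, with 14 counts at most in either library. The summed FPKM of 5 endothelial markers was 1.09 in hypoxia and 1.25 in normoxia, and that of 4 neural and glial markers was 3.37 in hypoxia and 4.06 in normoxia. Of 6 fibroblast markers the sum was 20.4 in hypoxia and 19.9 in normoxia, most of it COL1A1. Of 4 leukocyte markers it was 139.7 in hypoxia and 143.6 in normoxia, most of it the lysosomal gene CD68, while PTPRC, which marks leukocytes, had 2 counts in hypoxia and 0 in normoxia.

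All 4 NDRG genes passed the minimum. NDRG1 (Entrez 10397, chromosome 8, 133237175 to 133297252 in GRCh38.p14) had 5214 reads in hypoxia and 1958 in normoxia. Its level per length was 55.3 FPKM in hypoxia and 22.3 FPKM in normoxia. The counting interval ran from 53.8 to 56.9 FPKM in hypoxia and from 21.3 to 23.3 FPKM in normoxia, so the intervals lay far apart. The TMM-scaled ratio was 2.50 (2.37 to 2.63), a log2 ratio of 1.32 (1.24 to 1.40). Between the libraries, more cells with NDRG1 mRNA and more NDRG1 mRNA per cell cannot be told apart.

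NDRG3 (Entrez 57446, chromosome 20, 36651771 to 36746090) had 1161 counts in hypoxia and 1057 in normoxia. Its level was 17.0 FPKM (16.0 to 18.0) in hypoxia and 16.6 FPKM (15.6 to 17.6) in normoxia. The intervals overlapped almost wholly. The log2 ratio was 0.043 (-0.079 to 0.16), which is a difference of 3.01% (-5.31 to 12.1). A change of NDRG3 mRNA beyond these bounds is outside what counting error allows for this pair of libraries.

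NDRG4 (Entrez 65009, chromosome 16, 58463715 to 58515387) had 756 counts in hypoxia and 703 in normoxia. Its level was 8.39 FPKM (7.80 to 9.01) in hypoxia and 8.37 FPKM (7.76 to 9.02) in normoxia, which overlap throughout. The log2 ratio was 0.012 (-0.14 to 0.16), a difference of 0.853% (-9.11 to 11.9).

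NDRG2 (Entrez 57447, chromosome 14, 21016763 to 21070872) had 71 counts in hypoxia and 69 in normoxia. It was the lowest of the 4, at 1.03 FPKM (0.803 to 1.30) in hypoxia and 1.07 FPKM (0.834 to 1.36) in normoxia. The log2 ratio was -0.051 (-0.55 to 0.45). With so few reads the interval of the difference ran from -31.7% to 36.4%, so the counts do not exclude a difference inside that range.

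**Figure D1:**
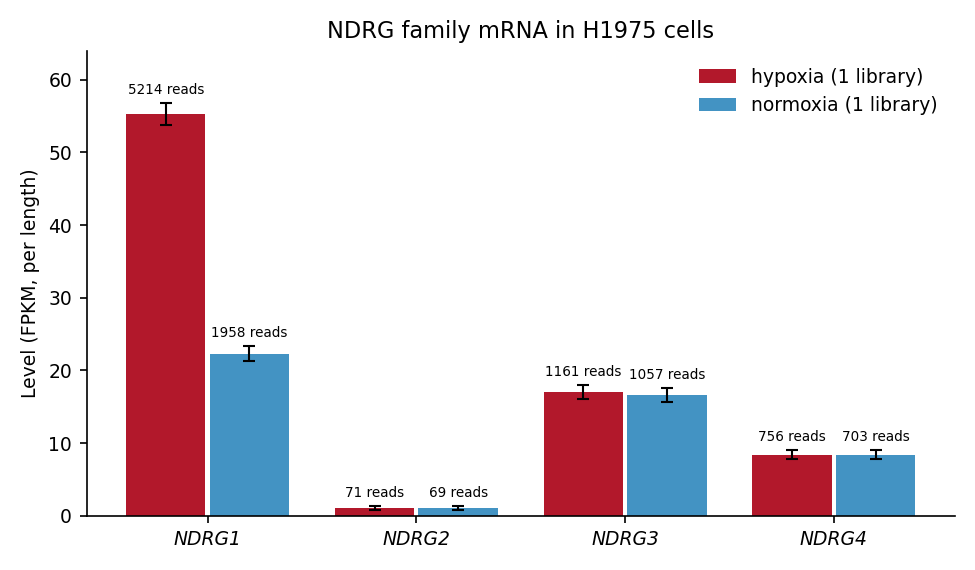
Level of each NDRG gene (vertical axis, FPKM, which is per length) in the hypoxia library (left bar of each pair) and the normoxia library (right bar). Error bars are exact 95% counting intervals and the number above each bar is its read count. NDRG1 stood at 55.3 FPKM in hypoxia and 22.3 FPKM in normoxia, while the intervals of the 2 libraries overlapped for NDRG2, NDRG3 and NDRG4.

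Promoter sequence was matched by symbol in a RefSeq table of GRCh38.p14, which gave windows for NDRG2 and NDRG4. The 250 bases before the outermost start of each are shown as sequence of members that did not pass the 2-fold rule in these libraries. Capitals mark the core letters ACGTG or GCGTG of the hypoxia response element, the motif that HIF binds, searched on both strands. The NDRG2 window is chr14:21070873-21071122 on the minus strand and the NDRG4 window is chr16:58463465-58463714 on the plus strand.
NDRG2: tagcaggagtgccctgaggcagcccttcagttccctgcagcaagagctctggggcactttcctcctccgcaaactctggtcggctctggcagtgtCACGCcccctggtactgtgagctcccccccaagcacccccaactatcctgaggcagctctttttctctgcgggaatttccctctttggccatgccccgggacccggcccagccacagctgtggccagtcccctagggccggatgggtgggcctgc
NDRG4: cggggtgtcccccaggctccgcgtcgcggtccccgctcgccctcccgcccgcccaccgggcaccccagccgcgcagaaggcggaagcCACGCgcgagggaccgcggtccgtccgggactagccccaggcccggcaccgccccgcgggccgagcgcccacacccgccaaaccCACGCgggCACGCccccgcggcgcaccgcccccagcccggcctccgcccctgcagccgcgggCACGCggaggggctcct

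The NDRG2 window holds 1 core match, 155 to 151 bases before the start. The NDRG4 window holds 4, all of them GCGTG on the opposite strand, at 82.8% G and C. At least 1 of the cores is held by 43.2% of all RefSeq windows of the same length, and 18.5% hold ACGTG. For windows of genes in the count table these shares were 52.6% and 21.3%. Of the 5 NDRG2 windows 3 hold a core and of the 4 NDRG4 windows 1, and none of these holds ACGTG or the MYC letters CACGTG, which overlap that core. CACGTG occurs in 6.34% of all windows and in 7.87% of those of genes in the count table. A match is letters in a window and not a measured site.

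Per length, the order of the family was the same in both libraries, with NDRG1 highest, then NDRG3, NDRG4 and NDRG2. No counting intervals of neighbours in this order overlapped. The NDRG1 level was 3.26 times that of NDRG3 in hypoxia and 1.34 times that in normoxia. NDRG3 was 2.02 times NDRG4 in hypoxia and 1.98 times in normoxia. Among all genes past the minimum, the NDRG1 level lay at percentile 89.9 in hypoxia and 75.2 in normoxia. NDRG3 lay at percentile 69.6 in hypoxia and 68.8 in normoxia, NDRG4 at 52.2 in hypoxia and 52.1 in normoxia, and NDRG2 at 12.7 in hypoxia and 13.1 in normoxia. NDRG2 thus lay near the bottom of the genes read in these cells and NDRG4 near the middle.

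The make-up of the family shifted with NDRG1. NDRG1 made up 67.7% of the summed FPKM of the 4 genes in hypoxia and 46.1% in normoxia. NDRG3 made up 20.8% in hypoxia and 34.3% in normoxia, NDRG4 10.3% in hypoxia and 17.3% in normoxia, and NDRG2 1.26% in hypoxia and 2.22% in normoxia. By read counts, which are not per length, NDRG1 was 72.4% in hypoxia (exact Clopper-Pearson interval 71.4 to 73.4), against 51.7% in normoxia (50.1 to 53.3). The 4 genes together drew 7202 reads in hypoxia against 3787 in normoxia, a ratio of 1.78 (1.71 to 1.86). Without NDRG1 the other members drew 1988 reads in hypoxia against 1829 in normoxia, a ratio of 1.02 (0.956 to 1.09).

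The members were also set against each other, as the quotient of 2 genes' hypoxia to normoxia ratios, from which the scaling of the libraries drops out. Of the 6 pairs, those with NDRG1 lay far above 1. NDRG1 gained on NDRG3 by 2.42-fold (2.20 to 2.68), on NDRG4 by 2.48-fold (2.20 to 2.78) and on NDRG2 by 2.59-fold (1.82 to 3.67). NDRG3 against NDRG4 gave 1.02 (0.893 to 1.17), an interval that holds 1. NDRG2 gave 0.937 (0.656 to 1.34) against NDRG3 and 0.957 (0.666 to 1.38) against NDRG4. Both intervals hold 1 and are wide, so the counts do not exclude differences between NDRG2 and these members of up to about those bounds.

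By the 2-fold rule 1 of the 4 members was called higher, NDRG1, and none was called lower. Of all 12725 genes 0.472% were called higher and 0.44% lower. Because NDRG1 was known to differ when the family was chosen, nothing is read from this count or from the ranks of NDRG1. By log2 ratio NDRG1 ranked 30 among all 12725 genes past the minimum. It had the highest log2 ratio of the 10739 genes whose count reached 100 in each library. In that set 3 genes, or 0.0279%, were called higher. Of those 3, the lowest log2 ratio was that of IGFBP3 at 1.04, and the next gene below the rule was ADAM8 at 0.87. Of the 969 genes with at least as many reads over both libraries as NDRG1, itself included, no other passed the 2-fold rule in either direction. NDRG3 and NDRG4 ranked 4129 and 5092 among the 10739. Of those genes, 27.1% lay within 0.05 log2 of NDRG3 and 28.6% within 0.05 of NDRG4, and no gene lay that near to NDRG1.

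**Figure D2:**
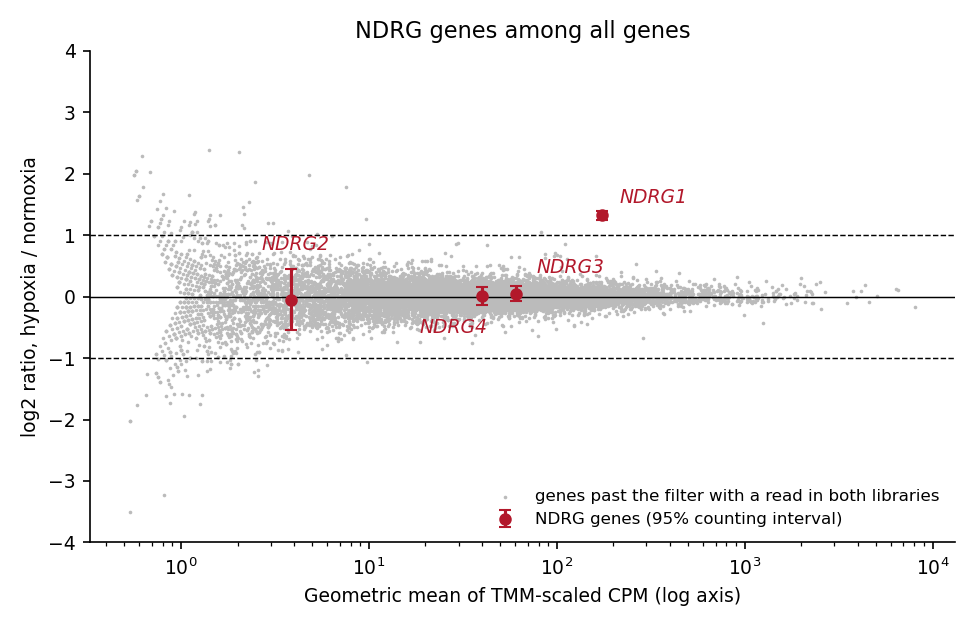
Each grey point is a gene past the minimum with a read in both libraries, by geometric mean CPM (horizontal, log axis) and log2 ratio of hypoxia to normoxia (vertical). Red points are the NDRG genes with 95% counting intervals and dashed lines mark 2-fold. NDRG1 stands at 1.32 above the cloud of genes with similar read numbers, and NDRG2, NDRG3 and NDRG4 lie within it near 0.

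The genes most like NDRG1 were taken as the 5 genes of this set whose log2 ratio lay nearest, a likeness over only 2 libraries. MAP7D2, a microtubule-binding protein, had 280 reads in hypoxia against 110 in normoxia. Its log2 ratio of 1.26 (0.93 to 1.59) overlaps the NDRG1 interval, and it was 0.71 on the log2 scale of FPKM with a pseudocount of 1. IGFBP3, a binding protein of insulin-like growth factors, had 2222 reads in hypoxia and 1010 in normoxia (1.04, 0.94 to 1.15). ADAM8, a membrane metalloprotease, had 757 reads in hypoxia and 388 in normoxia (0.87, 0.69 to 1.05). CP, the copper carrier ceruloplasmin, had 739 reads in hypoxia and 381 in normoxia (0.86, 0.68 to 1.04). The intervals of IGFBP3, ADAM8 and CP lay wholly below that of NDRG1. The last of the 5 was a second entry of GTPBP6, which shares its sequence with another copy, so its value is uncertain and is not given.

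NDRG1 was set beside 39 other genes that HIF is known to activate. Their median log2 ratio was 0.32, and the interval of 32 lay wholly above 0 and of 1 wholly below. Over all genes past the minimum 15% had an interval wholly above 0 and 14% wholly below. IGFBP3 and CP, named above, were not among the 39, so what follows holds for the listed genes only. None of the 39 passed the 2-fold rule and none had a log2 ratio as high as NDRG1. The highest were ANKRD37, an ankyrin repeat protein, with 103 reads in hypoxia and 49 in normoxia (log2 ratio 0.98, 0.47 to 1.501), and DDIT4, an inhibitor of mTORC1, with 2793 reads in hypoxia and 1452 in normoxia (0.85, 0.76 to 0.94). The ANKRD37 interval overlaps that of NDRG1 and the DDIT4 interval does not. Near the lower end of the list was the hydroxylase JMJD6 at -0.11 (-0.31 to 0.096). In level per length 6 of the 39 were above NDRG1 in hypoxia and 12 in normoxia. Of the 39, 36 had a higher log2 ratio than NDRG3, 36 than NDRG4 and 37 than NDRG2. NDRG3 and NDRG4 lay nearest to P4HA2, a collagen prolyl hydroxylase subunit at 0.0070 (-0.10 to 0.12).

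**Figure D3:**
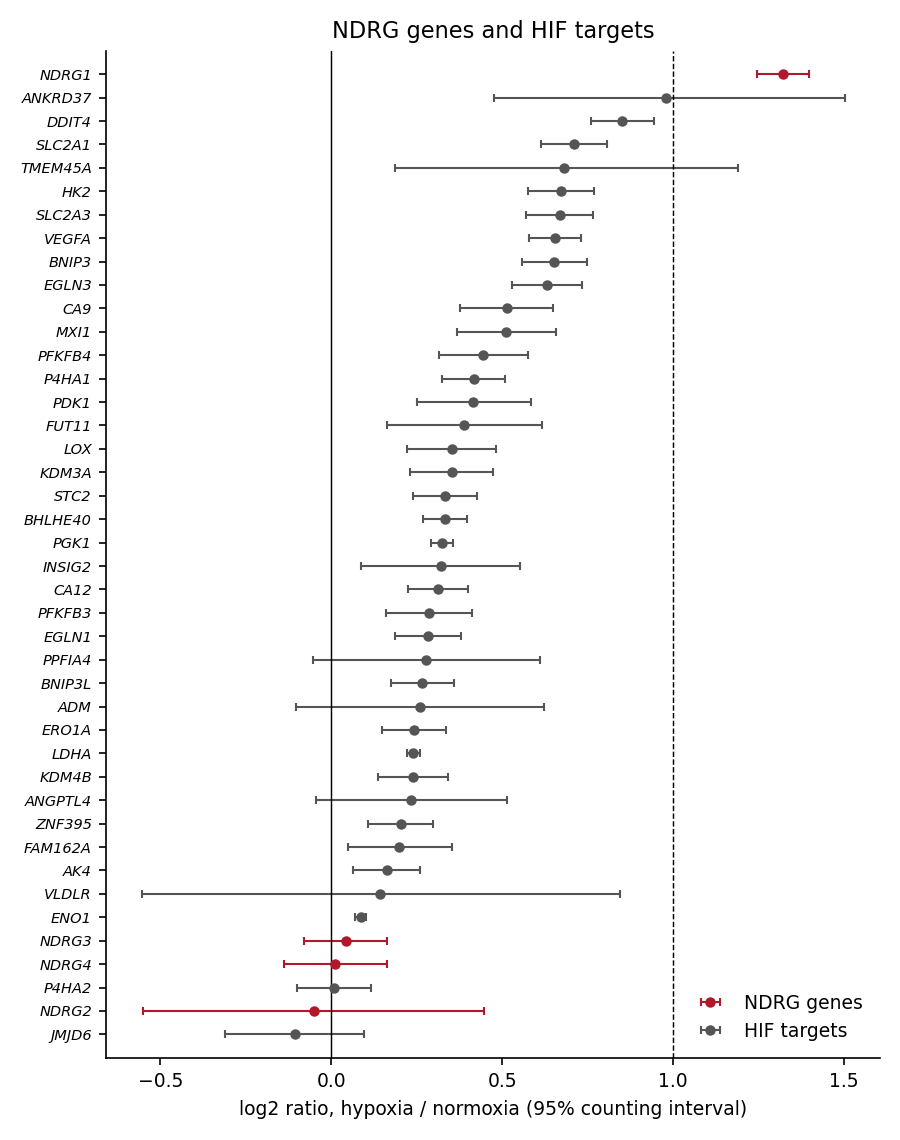
Log2 ratio of hypoxia to normoxia (horizontal) with 95% counting intervals for the NDRG genes (red) and 38 of the 39 listed HIF targets (grey). Genes are ordered by value and the dashed line is at 2-fold. NDRG1 at 1.32 is the top point, and NDRG3, NDRG4 and NDRG2 lie among the lowest points near 0.

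Transcription factors reported to act on NDRG1 were measured in the same libraries. Of 15 listed, 14 were in the table and passed the minimum, and MYCN, the N-myc of the family's name, was not found in the table by symbol. The median was -0.045, with 2 intervals wholly above 0 and 5 wholly below. Among all genes past the minimum, 15% lay wholly above 0 and 14% wholly below. HIF1A, an oxygen-labile HIF subunit, had 8065 reads in hypoxia against 7819 in normoxia, or -0.048 on the log2 scale (-0.093 to -0.0029). EPAS1, the HIF-2 alpha subunit, was at -0.042 (-0.10 to 0.017) and their partner ARNT at 0.044 (-0.10 to 0.19). ARNT2, another partner, was highest at 1.38 (0.43 to 2.42) and the one factor called higher, on 36 counts in hypoxia and 13 in normoxia. On the log2 scale of FPKM with a pseudocount of 1 it was at 0.21. SP1, a general activator, followed at 0.18 (0.10 to 0.26). The lowest were JUN, an AP-1 subunit, at -0.45 (-0.53 to -0.37) and MYC at -0.30 (-0.33 to -0.27). EGR1, an immediate early factor, was at -0.28 (-0.33 to -0.24).

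MYC and its relatives were listed because MYC proteins repress NDRG1. MYC was abundant, at 197.1 FPKM in hypoxia and 244.2 FPKM in normoxia. Of 11 network genes that passed, 3 had an interval wholly above 0 and 2 wholly below, around a median of 0.065. The shares over all genes past the minimum were 15% above and 14% below. The highest were MXI1, a MYC antagonist and HIF target, at 0.51 (0.37 to 0.66) and the antagonist MXD1 at 0.46 (0.23 to 0.69). The lowest were the antagonist MXD3 at -0.38 (-0.56 to -0.21) and MYC itself. MAX, the partner of both MYC and its antagonists, was at 0.065 (-0.042 to 0.17).

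Kinases of the NDRG1 protein and their complex gave small ratios. Of 15 listed genes of SGK, GSK3, AKT and the mTORC2 complex 13 passed, with a median of -0.031. None had an interval wholly above 0 and 2 had one wholly below, beside 15% and 14% of all genes past the minimum. SGK1, the kinase best known for NDRG1, had 1246 counts in hypoxia and 1214 in normoxia (-0.055, -0.17 to 0.060). GSK3B, which phosphorylates NDRG1 after SGK1, was at -0.063 (-0.16 to 0.035). The highest were the mTORC2-binding PRR5L at 0.26 (-0.22 to 0.76) and the upstream kinase PDPK1 at 0.075 (-0.038 to 0.19). The lowest were AKT2 at -0.23 (-0.34 to -0.11) and the mTORC2 subunit PRR5 at -0.22 (-0.51 to 0.060). SGK2 had 4 counts in hypoxia and 7 in normoxia and SGK3 had 1 in hypoxia and 0 in normoxia, so neither passed. These are mRNA levels and not kinase activity.

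Partners of NDRG1 in vesicle recycling, cell junctions and Wnt signalling had a median of 0.091. Of 10 genes 5 had an interval wholly above 0 and none wholly below, beside 15% and 14% of all genes past the minimum. The highest were the chaperone HSPA8 at 0.19 (0.16 to 0.21) and the caveolar protein CAV1 at 0.17 (0.13 to 0.20). HSPA8 had 31980 counts in hypoxia and CAV1 13283, so their intervals are narrow and leave out 0 at small ratios. The lowest were APC, which promotes beta-catenin turnover, at -0.036 (-0.20 to 0.13) and beta-catenin itself, CTNNB1, at 0.055 (-0.00087 to 0.11). The recycling GTPase RAB4A, which binds NDRG1, had 759 counts in hypoxia and 680 in normoxia (0.066, -0.085 to 0.22). Its cargo E-cadherin, CDH1, was at 0.066 (-0.075 to 0.21). None passed the 2-fold rule.

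For NDRG3, 15 genes of oxygen sensing, lactate and the ERK route were listed, though not each is known to act on NDRG3. Of these 15 genes, 7 had an interval wholly above 0 and 2 wholly below, with a median of 0.021. Over all genes past the minimum the shares were 15% above and 14% below. The highest were the HIF hydroxylases EGLN3 at 0.63 (0.53 to 0.73) and EGLN1 at 0.28 (0.19 to 0.38). EGLN1, the sensor that marks NDRG3, had 2017 counts in hypoxia and 1555 in normoxia. VHL was at 0.021 (-0.077 to 0.12). LDHA, which makes lactate, was at 0.24 (0.22 to 0.26). EGLN1, EGLN3 and LDHA were also among the HIF targets above. The lowest were the monocarboxylate carrier SLC16A4 at -0.31 (-1.14 to 0.52) and the hydroxylase EGLN2 at -0.20 (-0.41 to 0.0062).

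Genes tied to NDRG2 and NDRG4 in growth signalling were near 0. Of 8 that passed, 2 had an interval wholly above 0, among them the transcription factor STAT3 at 0.13 (0.054 to 0.20), and none wholly below. Over all genes past the minimum 15% were above and 14% below. The lowest were the growth factor BMP4 at -0.23 (-0.60 to 0.15) and SOCS1, an inhibitor of cytokine signalling, at -0.14 (-0.58 to 0.30). The catalytic subunit of protein phosphatase 2A, PPP2CA, was at -0.026 (-0.094 to 0.042). The median was -0.024. These 8 genes include ARHGEF40, which overlaps NDRG2 on the chromosome.

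**Figure D4:**
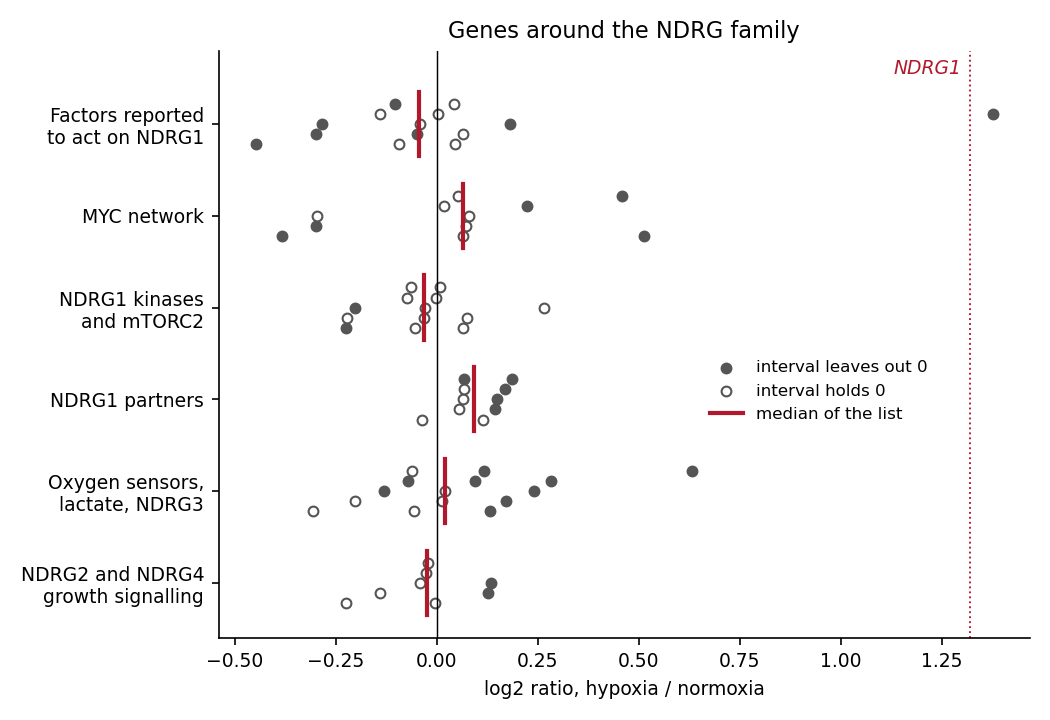
Log2 ratios of hypoxia to normoxia (horizontal) of the genes past the minimum in 6 lists around the NDRG family, 1 point a gene. Filled points have a counting interval that leaves out 0, open points hold it, red bars are list medians and the dotted line is NDRG1. All list medians lie between -0.045 and 0.091, and the point beyond the line of NDRG1 is ARNT2.

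The genes that neighbour each NDRG gene on the chromosome were compared with it. Beside NDRG1, CCN4, whose start is the nearest before it, had 0 counts in hypoxia and 1 in normoxia, and SLA had 1 in hypoxia and 0 in normoxia. On the other side ST3GAL1, a sialyltransferase, had 965 counts in hypoxia and 809 in normoxia (log2 ratio 0.16, 0.025 to 0.30), and ZFAT had 244 in hypoxia and 234 in normoxia (-0.032, -0.30 to 0.23). Of these 5 genes NDRG1 alone passed the 2-fold rule, and CCN4 and SLA had too few reads to be assessed. Beside NDRG3, RAB5IF was at -0.43 (-0.63 to -0.23), the kinetochore gene DSN1 at -0.014 (-0.16 to 0.14) and SOGA1 at 0.30 (0.14 to 0.46). Beside NDRG4, the replication factor GINS3 was at 0.023 (-0.13 to 0.18), SETD6 at -0.077 (-0.23 to 0.080) and CNOT1, the scaffold of the deadenylase complex, at 0.11 (0.047 to 0.17). Beside NDRG2, METTL17 was at -0.15 (-0.26 to -0.034). NDRG2 overlaps 7 other RefSeq genes, among them ARHGEF40 at -0.041 (-0.23 to 0.15). The sources used here do not say if reads were counted by strand, so NDRG2 reads may have been shared with or lost to these genes. NDRG4 overlaps 1 other RefSeq gene, so its reads may be affected in the same way. NDRG1 and NDRG3 overlap none.

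The annotation that the authors deposited with the counts gives NDRG1 26 Gene Ontology terms, NDRG2 18, NDRG3 7 and NDRG4 23. All members share 2 of them, cytoplasm and signal transduction. The term for cellular response to hypoxia is held by NDRG1 alone. NDRG1, NDRG2 and NDRG3 share the term extracellular exosome.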

How the data were processed

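RNA was extracted with TRIzol and made into stranded mRNA libraries, per the labels' protocols. GRCh38, HISAT2, HTSeq, Cufflinks, Trimmomatic and Bowtie are named in the submitters' processing notes, with neither role nor version. The authors deposited raw read counts per gene for 15562 genes, and FPKM for the same genes. In 100% of values above 0 the deposited FPKM equalled the counts divided by the table total and a gene length that was whole within 0.01 bases. The counts were used for ratios and the FPKM for levels between genes. The 2 miRNA libraries were not used here.

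Counts were scaled with TMM in edgeR 4.0.16 (R 4.3.3). Exact conditional intervals came from scipy 1.17.1 in Python 3.11.15, with pandas 2.3.3, numpy 2.4.6 and, for plots, matplotlib 3.10.9. At this depth 1 read equals a CPM of 0.0530 in hypoxia and 0.0565 in normoxia. No ratio is given where a library has 0 counts and the other 3 or fewer. The procedure was tested on simulated counts drawn with counting error alone, so that test says nothing on spread between cultures. Each list names its 2 highest and 2 lowest members, and other members are named for a known role. Single values of 3 listed genes are not reported here, though list counts and medians include them. Neighbours are the nearest 2 genes on each side by start and any that overlap, among genes of the table, in RefSeq (15522 genes matched by Entrez identifier). The members and lists were chosen with earlier results of these data known. The alternatives were upper quartile scaling, total counts, size factors from DESeq2 1.42.0, a CPM of 5 or no minimum, an interval wholly beyond 1.5-fold, and FPKM plus 1 or 0.1. TMM on genes whose count reached 100 in each library was added after seeing the data.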

Additional observations from a re-analysis of the deposited data

How the results depend on the processing

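NDRG1 was called higher in all 10 settings, its log2 ratio running from 1.27 (FPKM, pseudocount of 1) to 1.32. NDRG2, NDRG3 and NDRG4 were called in none. A CPM of 5 leaves out NDRG2. With FPKM and a pseudocount of 1, FPKM and a pseudocount of 0.1, no filter, a CPM of 5 and an interval beyond 1.5-fold, in that order, 6, 30, 100, 7 and 19 genes were higher (60 by the rule used) and 1, 20, 104, 1 and 10 lower (56). A CPM of 5 leaves out ARNT2 and gave 1 of the factors reported to act on NDRG1 an interval wholly above 0, against 2. By read counts instead of FPKM the family shares were 72.4% NDRG1, 0.986% NDRG2 and 16.1% NDRG3 in hypoxia, and 51.7% NDRG1 and 27.9% NDRG3 in normoxia, because counts are not divided by length. Of 42 other genes, from the lists, the chromosome neighbours and the genes nearest to NDRG1 in ratio, ARNT2 (0.21) and MAP7D2 (0.71) left their counting intervals with FPKM and a pseudocount of 1, and none did under the other settings. No value changed sign among those called. No paired analysis was possible because each condition has 1 library, and for the same reason no library could be left out.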
